A study of Mus musculus with 8 samples.

Results

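The lymphatic endothelial cells (ECs) described here were 156 of the 8204 cells deposited from sorted breast tumour endothelium (1.90%). A cell was taken as a lymphatic EC when its values of Prox1, Lyve1 and Ccl21a were all above 0 and at least 1 of Mmrn1, Reln and Pard6g was also above 0. These are levels in the cells themselves, so the high levels of the 6 genes describe the choice and are no finding. Live cells that carried the endothelial protein CD31 and lacked the leukocyte protein CD45 had been sorted from mouse mammary tumours and sequenced as 8 droplet libraries, 2 for each of 4 groups. In the spontaneous groups the tumours arose in female MMTV-PyMT mice, in which a viral promoter active in mammary epithelium drives the polyoma middle T oncogene. In the implanted groups, tumour cells digested from such nodules and grown on plates for 2 days were placed with Matrigel in the mammary fat pad of female mice without the transgene. Each tumour received 70 µl of PBS, either alone or with 14 µg of 3′3′cGAMP, a cyclic dinucleotide that activates the innate immune receptor STING, and cells were taken 3 h after this intratumoral (i.t.) injection. The labels give adult C57BL/6 mice while the methods name FVB mice, a conflict that was not settled. The methods give 2 mice for each group, and the labels do not say which library came from which mouse, so p-values measure the spread between libraries, which may be partly technical.

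Lymphatic ECs line the vessels that drain fluid, antigen and leukocytes from tissue to lymph nodes. Their identity is set by the transcription factor Prox1, and the growth factor receptor Flt4 (VEGFR3) carries their main growth signal. The capillary type takes up hyaluronan through Lyve1 and releases Ccl21a, the ligand of Ccr7, along which dendritic cells and T cells move into the vessel. STING activation classically induces type I interferons, whose target genes include antiviral effectors, antigen presentation genes and chemokines.

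The 8 libraries held 654 to 2025 cells and 7863535 to 16506086 UMIs (unique molecular identifiers, each standing for 1 captured transcript). Replicate 1 of implanted cGAMP was shallow, with a median of 2014 UMIs per cell against 8803.5 to 13148 in the other libraries. Its lymphatic ECs also held the most epithelial, immune and mural marker transcripts, though not the most fibroblast ones. Results that turned on this library are given with and without it. Of 8197 distinct barcodes 7 occurred in more than 1 library, and 0 of them belonged to a lymphatic EC. The lymphatic ECs numbered 7 and 14 in the spontaneous PBS libraries, 15 and 13 in spontaneous cGAMP, 11 and 9 in implanted PBS, and 60 and 27 in implanted cGAMP, replicate 1 before replicate 2 here and throughout. Together they carried 2493569 UMIs, and their median per cell ranged from 10404 to 25255 between libraries.

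The label was checked on genes that the rule did not use. The cells carried further lymphatic markers and less of the blood vessel programme than blood ECs. The comparison classes were 6512 blood ECs (Pecam1 present, Cdh5 or Egfl7 present, Prox1 absent) and 394 other Prox1-positive ECs (Prox1 and Pecam1 present, rule not met). Levels are given as mean CPM (a gene's UMIs per 1000000 UMIs of a cell, averaged over the cells of a library), and as CPM counts transcript ends it was used without length correction. Pdpn, a membrane glycoprotein of lymphatic endothelium, averaged 518 CPM over the 8 libraries in the lymphatic ECs, 4.67 in blood ECs and 107 in other Prox1-positive ECs. Flt4 averaged 929 CPM against 72.8 and 208. The transcription factor gene Maf averaged 906 CPM against 14.2 and 332. Flt1, the VEGF receptor of blood vessels, averaged 10.8 CPM in the lymphatic ECs and 1009 in blood ECs, and Sox17, an arterial transcription factor gene, 1.01 and 186. Ackr1, a marker of venules, averaged 5.76 CPM against 197. Not every blood EC marker was this low. Plvap, Emcn and Aqp1 had UMIs in the lymphatic ECs of every library, and Aqp1 averaged 445 CPM there. The 11 blood EC markers listed summed to 825 to 1740 CPM in the lymphatic ECs and 6429 to 7907 CPM in blood ECs. In other Prox1-positive ECs they summed to 3557 to 6616 CPM, so that class carried much of the blood vessel programme. Because the classes were separated by gene levels, these contrasts are descriptions without a test.

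**Figure D1:**
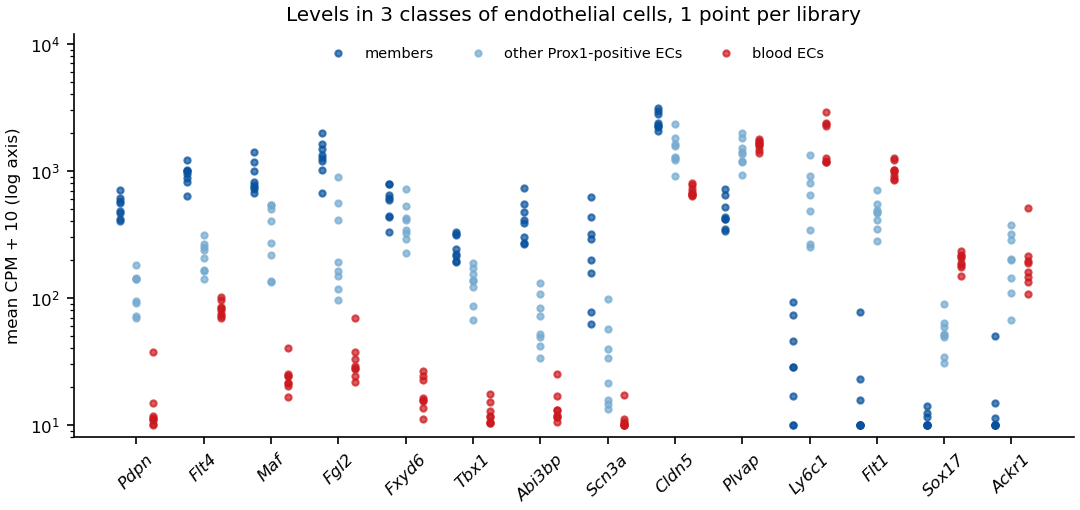
Mean CPM plus 10 (log axis) of 14 genes in the lymphatic ECs (dark blue, "members"), other Prox1-positive ECs (light blue) and blood ECs (red), 1 point per library. Pdpn, Flt4, Maf and Abi3bp lay highest in the lymphatic ECs of every library, and Flt1, Sox17 and Ly6c1 lay lowest there.

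Of 3427 genes at 50 CPM or more, 41 were at least 4-fold higher in the lymphatic ECs than in blood ECs in every library. Only Scn3a, a sodium channel subunit gene, was at least 4-fold above other Prox1-positive ECs in every library, at a mean of 260 CPM against 26.6. The following genes were picked after their values were seen, though Ptx3 stood on the lymph node list and Il7 on the leukocyte traffic list. Abi3bp, which encodes an extracellular matrix protein, averaged 413, 4.24 and 61.4 CPM in lymphatic, blood and other Prox1-positive ECs. The soluble pattern recognition protein gene Ptx3 averaged 168, 0.952 and 8.92 CPM. Il7, which encodes a lymphocyte survival cytokine, averaged 113, 1.03 and 27.6 CPM. All 3 were therefore highest in the lymphatic ECs, and other Prox1-positive ECs lay between these and blood ECs. That class also carried many blood EC marker transcripts, and the part of blood ECs in its levels was not tested. The contrasts with it therefore do not set these cells apart from other lymphatic ECs.

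Genes of the specialised parts of the lymphatic tree differed in how far they were present. All 11 listed valve and collecting genes reached a mean of 20 CPM, and 3 of 9 listed lymph node genes did. Foxc2, a transcription factor gene of valves, stood at 40.3 to 134 CPM with a UMI in 30% to 72.7% of the lymphatic ECs of a library, against 3.44% to 7.24% of blood ECs. Lbp, which encodes a lipopolysaccharide-binding protein, stood at 378 to 1073 CPM, and the claudin gene Cldn11 at 16.6 to 76.1 CPM. Ptx3, also on the lymph node list, was the clearest of them, at a mean of 168 CPM against 0.952 in blood ECs. Ackr4 and Marco, which mark lymph node sinus ECs, had no UMI in the lymphatic ECs of any library. Ccl20, a chemokine gene of the node floor, was present at 211 CPM in spontaneous PBS replicate 1 alone. Only 1 of the 7 lymphatic ECs of that library held it, so its place among the 3 genes rests on that cell. The growth factor gene Vegfc had no UMI in 6 libraries and stood at 1.76 and 1.31 CPM in implanted cGAMP, against 58.9 to 126 CPM in blood ECs.

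The 6 genes of the rule were not equally distributed over the groups, and their values are given without a test. Ccl21a stood at 31464 and 29809 CPM in spontaneous PBS, 20116 and 15265 in spontaneous cGAMP, 25159 and 23230 in implanted PBS, and 20532 and 26647 in implanted cGAMP. It was among the most abundant transcripts of these cells, and the groups overlapped in the implanted model. Ccl21a (GRCm38 chromosome 4, 42772860 to 42773993, minus strand) has near-identical copies in the mouse genome, so its count could be split or pooled among them. Lyve1 stood at 2025 and 2253, 3734 and 4210, 3019 and 3375, and 3194 and 4660 CPM in the same order. Reln, which encodes the secreted glycoprotein reelin, stood at 597 and 694, 230 and 403, 607 and 496, and 140 and 170 CPM. Each cGAMP library was therefore below each PBS library for Reln. Mmrn1, a matrix and platelet glycoprotein gene, stood at 3180 and 2587, 1784 and 2263, 1857 and 2118, and 1142 and 1473 CPM. Prox1 stood at 458 to 910 CPM and Pard6g, a polarity gene, at 511 to 830 CPM, with overlapping PBS and cGAMP values.

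The threshold of the rule lay at a single UMI. Among the members 27 carried 1 Prox1 UMI, 22 of them in implanted cGAMP replicate 1, 6 carried 1 Lyve1 UMI and 6 carried 1 Ccl21a UMI. Just outside, 172 cells met all conditions except 1, of which 100 came from that library: 94 lacked only Prox1, 43 only Lyve1, 30 only Ccl21a and 5 only the last 3 genes. The median number of Ccl21a UMIs per lymphatic EC was 336 and 429, 128 and 111, 320 and 258, and 49 and 573. A Ccl21a UMI was also found in 0.409% to 1.43% of blood ECs in 6 libraries, and in 11.04% and 7.44% in implanted cGAMP. With every cell thinned to 2000 UMIs those shares were 0.166% to 0.611%, 4.35% and 0.821%. A Ccl21a UMI alone thus did not set a cell apart from the blood EC class in implanted cGAMP, whereas 17 lymphatic ECs in all held fewer than 10 of them. That class was defined by absent Prox1, so it could hold lymphatic ECs whose Prox1 was not captured. In implanted cGAMP replicate 1, 85 cells lacked only Prox1, and blood ECs there averaged 537 CPM of Ccl21a and 104 CPM of Lyve1. The part of missed lymphatic ECs in these values was not tested.

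Lymphatic ECs took a larger share of the endothelium in implanted cGAMP than elsewhere, but the treatment difference did not pass the test. Their share of all ECs was 0.738% (95% Wilson interval 0.358 to 1.52) and 2.36% (1.41 to 3.93) in spontaneous PBS, and 2.24% (1.36 to 3.67) and 1.90% (1.11 to 3.22) in spontaneous cGAMP. It was 1.11% (0.622 to 1.98) and 0.829% (0.437 to 1.57) in implanted PBS, and 4.02% (3.14 to 5.14) and 4.49% (3.1 to 6.45) in implanted cGAMP. The intervals cover counting error only. All ECs were the lymphatic, blood and other Prox1-positive ECs together, and Pecam1 was not required of the lymphatic ECs. It was present in 141 of the 156 lymphatic ECs, and in 50 of the 60 in implanted cGAMP replicate 1. Both implanted cGAMP libraries were above every other library, and the spontaneous groups overlapped. The mean share was 3.16% with cGAMP and 1.26% with PBS, a difference of 1.90 percentage points (exact permutation test within models, two-sided p = 0.167 over 36 arrangements, where the smallest possible p is 0.0556). With cells thinned to 2000 UMIs the difference was 1.61 points (exact permutation p = 0.111). The mean share was 2.61% in implanted and 1.81% in spontaneous tumours, a difference of 0.80 points (exact permutation p = 0.222). A share can rise because lymphatic ECs increase or because blood ECs decrease, and these cannot be told apart here.

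**Figure D2:**
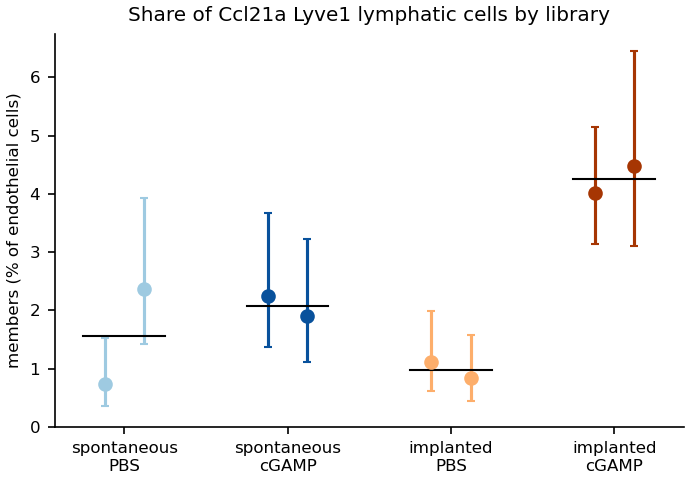
Share of lymphatic ECs among all ECs in percent, 1 point per library with its 95% Wilson interval, in the 4 groups. The implanted cGAMP libraries sit at 4.02% and 4.49%, and the others lie between 0.738% and 2.36%.

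Transcripts of other cell types were low in the lymphatic ECs except in a few libraries. The summed level of 6 epithelial markers was 785 CPM in implanted cGAMP replicate 1 and 654 CPM in spontaneous PBS replicate 1, with a lowest value of 46.1. The 8 immune markers summed to at most 240 CPM and the 6 mural markers to at most 144 CPM, both reached in implanted cGAMP replicate 1. The 6 fibroblast markers summed to 0 to 20.2 CPM in spontaneous and 102 to 462 CPM in implanted tumours, and Lum had no UMI in any library. In implanted tumours nearly all of the sum was Dcn, which had no UMI in spontaneous PBS. The part of transcripts of other cell types in the results below was not tested. Each test was, however, repeated without the lymphatic ECs that held a UMI of any of 8 markers of other cell types. Of the 72 cells left, 70 in 7 libraries entered, because spontaneous PBS replicate 1 kept fewer than 5, so the choice of cells and the loss of a library changed together.

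Injection of cGAMP changed the transcriptome of the lymphatic ECs mainly upwards, and interferon genes led the change. Over both models (the mean response) 156 of 6446 genes passed limma's test with Benjamini-Hochberg adjustment (2.42%), 124 of them higher (1.92%) and 32 lower (0.496%). The 2 models alone gave 107 genes in spontaneous tumours (1.66%) and 50 in implanted tumours (0.776%). Of these, 35 passed in both, which is 32.7% of the spontaneous and 70% of the implanted list, and all 35 changed in the same direction. The tested values were log2(mean CPM + 10) in genes whose mean reached 20 CPM, so changes of low genes are understated. Without implanted cGAMP replicate 1 there were 94 genes, of which 92 were among the 156. Leaving out spontaneous cGAMP replicate 1 left 77, of which 75 were shared.

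Type I interferon genes rose together. Of the 8 interferon genes that the study named 6 rose, but they were chosen on these samples and are not independent evidence. The further type I interferon genes were listed with earlier results of these data known, so they are not independent evidence either. Of 25 further type I interferon genes tested 23 rose (92%, against 1.92% of all genes) and none fell. Their median log2 change was 2.57 (2.62 with genes absent from the controls at their lower bound) against −0.03 over all genes. Some of them, such as Rsad2 and Mx1 with no UMI in the controls, reached the level for testing through the cGAMP libraries alone. Within the models alone 16 of the 25 rose in spontaneous tumours (64%, against 1.37% of all genes) and 10 in implanted tumours (40%, against 0.605%).

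Ccl5, a chemokine that draws T cells and monocytes, showed the steepest rise (chromosome 11, 83525778 to 83530518, minus strand). It had no UMI in the lymphatic ECs of any PBS library, and stood at 1161 and 4270 CPM in spontaneous cGAMP and 3180 and 2736 CPM in implanted cGAMP. Taking the 625421 UMIs of the control lymphatic ECs with a floor of 3 counts over the group, Ccl5 was at least 591-fold higher with cGAMP (limma, adjusted p = 1.44e-10). Rsad2, the antiviral radical SAM enzyme viperin, was likewise absent from PBS and stood at 265, 270, 180 and 178 CPM in the 4 cGAMP libraries. It was at least 46.5-fold higher (adjusted p = 8.08e-08). The groups did not overlap for either gene.

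Irf7, the transcription factor that amplifies interferon production, stood at 46.8 and 9.63 CPM in spontaneous PBS and 141 and 63.5 in implanted PBS. It reached 1439 and 1643, and 1291 and 1482 CPM with cGAMP, a log2 change of 4.63 ± 0.32 (SE, adjusted p = 3.13e-06). Every cGAMP library was above every PBS library. Ifit1, which binds foreign RNA caps, stood at 0 and 5.30 CPM in spontaneous PBS, 292 and 409 in spontaneous cGAMP, 65.2 and 9.40 in implanted PBS, and 341 and 271 in implanted cGAMP. Its log2 change was 3.94 ± 0.37 (adjusted p = 3.65e-06). Isg15, a ubiquitin-like modifier, stood at 82.6 and 24.1, 2495 and 1186, 370 and 113, and 1699 and 1602 CPM. Its log2 change was 3.94 ± 0.52 (adjusted p = 0.0217), and the call was lost when either implanted cGAMP library was left out (adjusted p = 0.0831 without replicate 1 and 0.0889 without replicate 2). Bst2, the tetherin that holds virions at the cell surface, stood at 164 and 117, 1473 and 1547, 349 and 171, and 1598 and 2230 CPM, a log2 change of 3.12 ± 0.21 (adjusted p = 6.38e-08).

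Oasl2, Oasl1, Ifit3 and Isg20, which also encode antiviral proteins, had 1 to 3 UMIs in all control lymphatic ECs together. The ratio of summed UMIs, cGAMP to PBS, was 40.2 for Oasl2 (95% counting interval 13.6 to 196), 68.0 for Oasl1 (12.1 to 2697), 35.8 for Ifit3 (12.1 to 175) and 83.7 for Isg20 (14.9 to 3319). The wide intervals reflect the few control UMIs, and Ifit3 shares near-identical sequence with Ifit3b. Apod, which encodes a small lipid carrier of the lipocalin family and belongs to no interferon list used here, stood at 35.8 and 0 CPM in spontaneous PBS, 276 and 89.2 in spontaneous cGAMP, 0 and 0 in implanted PBS, and 342 and 319 in implanted cGAMP. Its ratio of summed UMIs was 69.0 (19.0 to 571, adjusted p = 3.81e-05). Stat2, a transcription factor gene of the interferon receptor pathway, rose by 1.60 on the log2 scale (adjusted p = 0.0092), a call lost without any of 4 libraries. Cxcl9, a T cell chemokine, did not pass. It ranged from 0 to 403 CPM in PBS and 241 to 1273 with cGAMP (log2 change 3.44 ± 1.45, adjusted p = 0.46). Cxcl10 ranged from 0 to 324 and 66.4 to 413 CPM (2.24 ± 0.93, adjusted p = 0.437). For both chemokines the groups overlapped because implanted PBS replicate 1 was high.

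**Figure D3:**
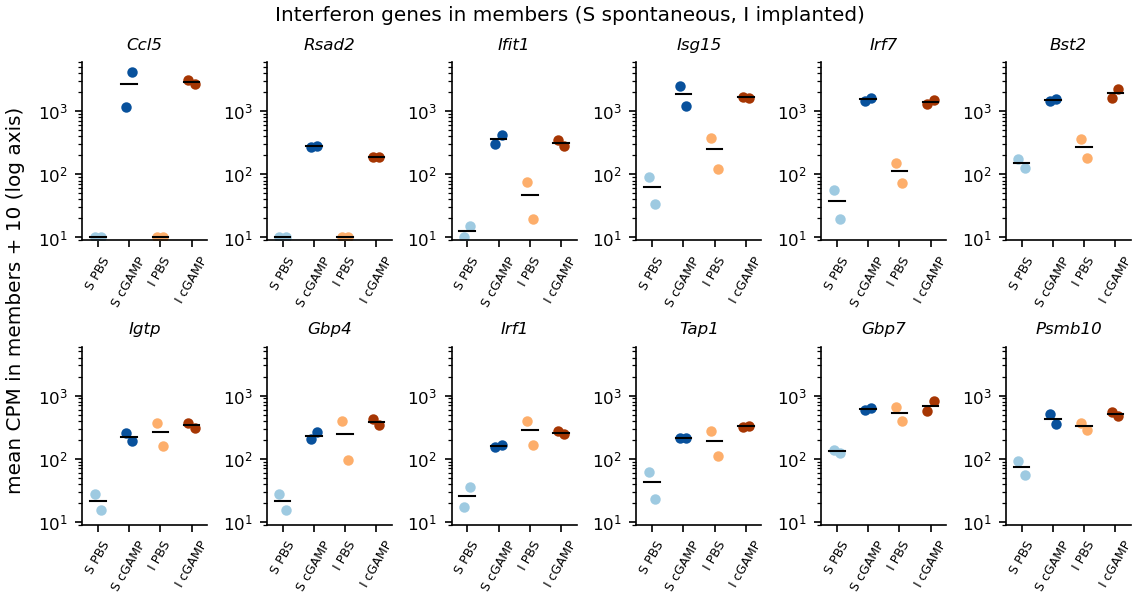
Mean CPM plus 10 in the lymphatic ECs (log axis) of 12 interferon genes, 1 point per library and a bar at the group mean, S for spontaneous and I for implanted tumours. Ccl5 and Rsad2 sit at the floor in all PBS libraries, while Igtp, Irf1 and Gbp7 are already high in implanted PBS.

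Because the genes moved together, their promoters were searched for the core of the interferon-stimulated response element, spelled GAAA, any 2 bases and GAAA on 1 strand and TTTC, any 2 bases and TTTC on the other. Both strands were searched and overlapping matches were counted. The window was the 250 bases before each RefSeq start (GRCm38.p6). The motif was present in 26 of 100 risen genes with a promoter in the table (26%), in 0 of 18 that fell, in 180 of 5097 of the genes tested (3.53%) and in 978 of all 32851 promoters (2.98%). Of the listed type I interferon genes that rose it was present in 10 of 23 (43.5%). A match is a description of letters and not evidence of binding. The following 30-base stretches show it in 5 of the genes described above, with the motif in capitals, on the strand of the gene.
Rsad2, chr12:26456553-26456582, minus strand: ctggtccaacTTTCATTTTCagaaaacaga
Ifit1, chr19:34640775-34640804, plus strand: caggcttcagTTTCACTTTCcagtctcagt
Ifit3, chr19:34583363-34583392, plus strand: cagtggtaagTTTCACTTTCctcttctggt
Isg15, chr4:156200865-156200894, minus strand: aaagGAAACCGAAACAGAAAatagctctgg
Bst2, chr8:71537583-71537612, minus strand: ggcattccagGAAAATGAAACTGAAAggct
In Isg15 and Bst2 the capitals cover 2 overlapping matches. The windows of Irf7, Apod, Oasl2, Oasl1 and Isg20 held no match, and Ccl5 was not in the table.

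Part of the interferon-gamma type and MHC class I genes rose in spontaneous tumours, and part was higher in implanted than in spontaneous PBS. Of 21 such genes tested 10 rose in spontaneous tumours (median log2 change 2.56, against 1.37% of all genes higher) and 0 in implanted tumours (median 0.79, against 0.605%), and 10 in the mean response. The difference between the responses was tested directly and none passed: of all 6446 genes 0 were called (0.0%), and 361 had an unadjusted p below 0.05 (5.6%). The count was 20 (17 lower) in the lymphatic ECs without UMIs of other cell types, and 4, 9 and 9 without spontaneous PBS replicate 1, spontaneous PBS replicate 2 or implanted PBS replicate 2. With all 8 libraries a different response of the models was not shown for any gene. With PBS alone, 26 genes differed between implanted and spontaneous tumours (0.403%), 21 of them higher (0.326%) and 5 lower (0.0776%) in implanted tumours, and 7 of the 21 listed genes were among these: Gbp4, Gbp7, Igtp, Irf1, Irgm2, Psmb10 and Tap1.

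Igtp, an interferon-inducible GTPase gene (chromosome 11, 58199556 to 58207591, plus strand), stood at 17.9 and 5.30 CPM in spontaneous PBS, 241 and 184 in spontaneous cGAMP, 351 and 150 in implanted PBS, and 363 and 291 in implanted cGAMP. In spontaneous tumours its log2 change was 3.42 ± 0.41 (adjusted p = 8.27e-05). In implanted tumours it was 0.48 (adjusted p = 0.885), and the difference of −2.94 ± 0.59 did not pass (adjusted p = 0.205). Between the PBS groups it was higher in implanted tumours by 3.54 ± 0.41 (adjusted p = 0.000344). Irf1, a transcription factor gene of the interferon-gamma response, stood at 6.81 and 25.1, 143 and 153, 390 and 152, and 260 and 238 CPM. It rose by 2.70 in spontaneous tumours (adjusted p = 0.00224), had a change of 0.02 in implanted tumours (adjusted p = 0.998), and was higher in implanted PBS than spontaneous PBS by 3.39 ± 0.44 (adjusted p = 0.00106). For both genes the spontaneous PBS libraries were the low ones. Gbp7, a guanylate-binding protein gene of a family with close copies, stood at 126 and 115, 586 and 630, 651 and 388, and 560 and 800 CPM, again lowest in spontaneous PBS. The heavy and light chains of MHC class I did not pass. B2m stood at 1433 and 619, 4757 and 5295, 4212 and 1836, and 5628 and 6555 CPM (mean log2 change 1.76 ± 0.40, adjusted p = 0.158), with a gap of over 1 log2 unit between replicates of each PBS group. MHC class II genes had 0 of 5 calls (median 0.33). The class II invariant chain gene Cd74 ranged from 0 to 1291 CPM. All 5 class II genes were higher in implanted than in spontaneous tumours, though none passed. Their log2 differences were 1.22 to 4.17 after PBS (median 1.91) and 1.04 to 2.73 after cGAMP (median 1.37).

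Other genes also separated the PBS groups of the 2 models. Serpina3f, a protease inhibitor gene, had no UMI in spontaneous PBS and stood at 163 and 87.8 CPM in implanted PBS (log2 difference 3.70 ± 0.53, adjusted p = 0.00181). Pla2g16, a phospholipase gene, stood at 9.29 and 17.4 CPM against 252 and 178 (3.27 ± 0.34, adjusted p = 0.000143). The fibroblast marker gene Dcn had no UMI in spontaneous PBS and stood at 462 and 97.1 CPM in implanted PBS (4.49 ± 0.61, adjusted p = 0.00181). Of the other fibroblast markers Lum was at 0 and Col1a1 at 12 CPM or less, and the part of fibroblast RNA in the Dcn level was not tested. Hspb1, a small heat shock protein gene, was lower in implanted tumours, at 66.7 and 27.9 CPM against 246 and 619 (−2.90 ± 0.43, adjusted p = 0.00255). Cd59a, which protects cells from complement, stood at 5.17 and 10.9 CPM against 123 and 85.6 (−2.66 ± 0.50, adjusted p = 0.0149), a call lost without spontaneous PBS replicate 1 or implanted PBS replicate 1 (up to 0.127). Aebp1 (−1.85, adjusted p = 0.0122) was lost without spontaneous PBS replicate 2 (0.101), Rnase4 (−1.31, adjusted p = 0.0149) without any of 3 libraries, and Cebpb (−1.15, adjusted p = 0.0459) without any of 7. After cGAMP a single gene differed between the models, Dcn (0.0155%, 4.22 ± 0.61, adjusted p = 0.0204), and this was lost without any of 6 libraries.

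Leukocyte traffic genes divided into a few that rose and many that did not pass. Of 20 tested 3 rose (15%, against 1.92% of all genes) and none fell, with a median of 0.37: Ccl5, Ackr3 and Csf1. Ccl5 had no UMI in the controls, so it reached the level for testing through the cGAMP libraries alone and could only rise. It is also among the genes that the study named, so this count was partly set in advance. Ackr3, a scavenging receptor for Cxcl12 and adrenomedullin, stood at 76.4 and 78.7, 298 and 180, 74.5 and 101, and 242 and 238 CPM. Each cGAMP library was above each PBS library, with a log2 change of 1.42 ± 0.24 (adjusted p = 0.00196). Csf1, the macrophage growth factor, was less abundant, at 0 to 33.6 CPM in PBS and 38.7 to 83.5 with cGAMP. Its log2 change was 1.71 (adjusted p = 0.0472), a call lost without any of 7 libraries. S1pr1, through which cells sense the lipid that guides lymphocyte exit, stood at 342 to 494 CPM with a log2 change of 0.17. The inflammatory chemokine scavenger Ackr2 stood at 79.7 and 36.1, 46.7 and 137, 103 and 74.8, and 109 and 116 CPM (0.41, adjusted p = 0.681). Ccl2, a monocyte chemokine, ranged from 2.999 to 185 CPM in PBS and 91.3 to 396 with cGAMP (2.30 ± 1.01, adjusted p = 0.468). The adhesion molecule gene Icam1 reached 755 CPM in implanted PBS replicate 2 and 66.1 to 256 CPM elsewhere (0.31 ± 0.50, adjusted p = 0.877). For Ackr2, Ccl2 and Icam1 the groups overlapped.

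Of 17 lymphatic identity genes outside the rule 1 fell (5.88%, against 0.496% of all genes) and none rose, with a median log2 change of −0.24. Nrp2, the co-receptor that Flt4 uses for Vegfc (chromosome 1, 62703285 to 62818695, plus strand), stood at 732 and 807, 409 and 368, 575 and 594, and 376 and 429 CPM. The groups did not overlap, and it fell by 0.75 ± 0.16 on the log2 scale (adjusted p = 0.0113), though without spontaneous cGAMP replicate 2 or implanted cGAMP replicate 1 the adjusted p was 0.0595 and 0.0811. Flt4 itself stood at 1002 and 1209, 986 and 990, 874 and 934, and 627 and 809 CPM (−0.25, adjusted p = 0.516). Pdpn stood at 454 and 389, 409 and 600, 473 and 571, and 551 and 698 CPM (0.24, adjusted p = 0.638). Both overlapped between PBS and cGAMP.

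Of 16 lymphangiogenic signalling genes 1 rose (against 1.92% of all genes) and 1 fell (against 0.496%), Nrp2 again being the latter. Adm, which encodes adrenomedullin, a peptide that tightens lymphatic junctions, stood at 46.4 and 77.4, 121 and 227, 76.1 and 37.6, and 107 and 227 CPM. It rose by 1.35 on the log2 scale (adjusted p = 0.0265), and the call was lost without any of 5 libraries (up to 0.236). Kdr, the VEGFR2 gene, stood at 690 and 739, 379 and 420, 390 and 309, and 477 and 545 CPM, with spontaneous PBS highest and no call (−0.14, adjusted p = 0.808). Angpt2, a Tie2 ligand gene, stood at 22 and 377, 344 and 317, 140 and 119, and 226 and 285 CPM (1.27, adjusted p = 0.64), with spontaneous PBS replicate 1 apart from its partner. Of 10 junction genes 0 passed, with a median of −0.05, and the tight junction gene Cldn5 stood at 2035 to 3106 CPM (−0.07). Of 11 valve genes and 3 lymph node genes 0 passed, where 2.42% of all genes did.

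**Figure D4:**
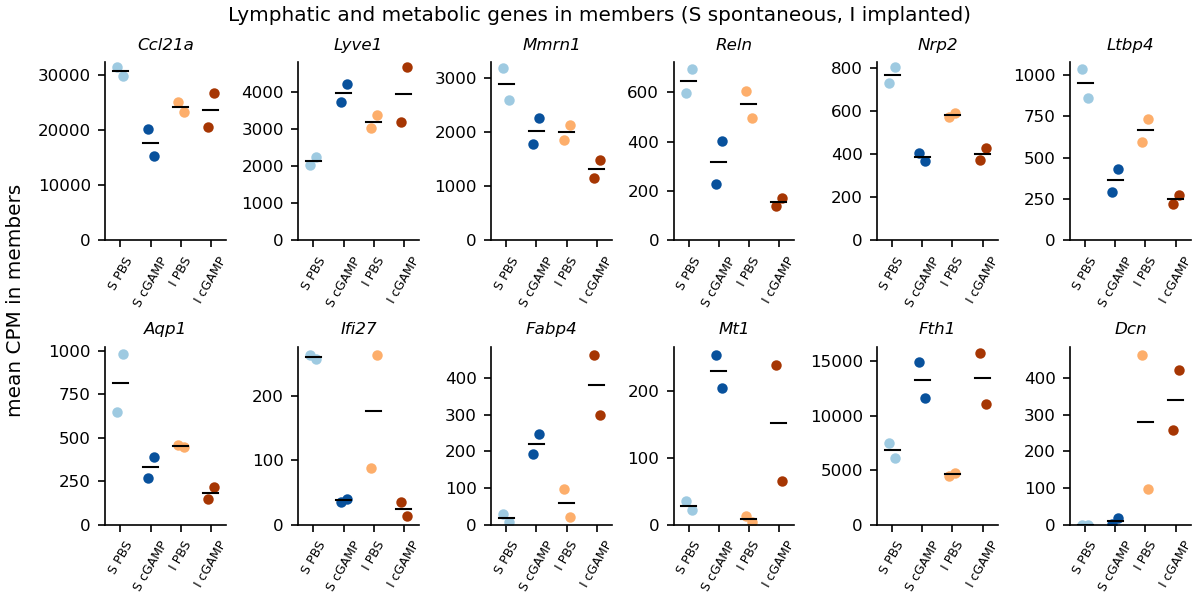
Mean CPM in the lymphatic ECs (linear axes from 0) of 12 lymphatic and metabolic genes, 1 point per library and a bar at the group mean. Reln, Nrp2, Ltbp4 and Aqp1 are lower in every cGAMP library than in every PBS library, and Fabp4, Mt1 and Fth1 are higher. Ccl21a, Lyve1, Mmrn1 and Reln belong to the rule and were not tested.

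The genes that fell were fewer and changed less. Among all genes tested, 244 had every cGAMP library above every PBS library (3.79%) and 211 had the opposite order (3.27%). Ifi27, an interferon-inducible mitochondrial protein gene (chromosome 12, 103434211 to 103440239, plus strand), went against the other interferon genes. It stood at 264 and 256, 35.8 and 39.7, 87.4 and 264, and 34.9 and 12.9 CPM, and fell by 2.42 ± 0.34 on the log2 scale (adjusted p = 0.000232). Ltbp4, which encodes a matrix protein that holds latent TGF-beta (chromosome 7, 27305136 to 27337692, minus strand), stood at 1037 and 864, 292 and 434, 596 and 736, and 223 and 275 CPM. It fell by 1.38 ± 0.18 (adjusted p = 0.000114), and all cGAMP values lay below all PBS values. The water channel gene Aqp1 stood at 650 and 983, 267 and 391, 460 and 444, and 149 and 216 CPM and fell by 1.28 ± 0.20 (adjusted p = 0.000853). Gap43, best known from growing axons, stood at 222 and 211, 34.4 and 14.3, 117 and 85.0, and 37.6 and 62.0 CPM and fell by 1.84 ± 0.30 (adjusted p = 0.00128). Ltc4s, the leukotriene C4 synthase gene, stood at 130 and 154, 20.3 and 45.7, 105 and 78.4, and 27.1 and 24.4 CPM and fell by 1.69 ± 0.31 (adjusted p = 0.00379). These 5 falls held whichever library was left out.

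The other 5 large falls were less stable. Gas6, a ligand of the TAM receptors, stood at 441 and 248, 83.3 and 116, 127 and 344, and 54.5 and 98.0 CPM (−1.53, adjusted p = 0.00943), lost without spontaneous PBS replicate 1 or replicate 1 of either cGAMP group (0.056 to 0.106). The galectin gene Lgals1 stood at 338 and 133, 29.1 and 70.5, 215 and 270, and 97.0 and 140 CPM (−1.49, adjusted p = 0.0105). It turned to 0.21 in the lymphatic ECs without UMIs of other cell types, where spontaneous PBS replicate 1 had too few cells to enter, and it was lost without any of 4 libraries. The G1 cyclin gene Ccnd2 (−1.68, adjusted p = 0.0217) was lost without any of 7 libraries. Tnpo1, a nuclear import receptor gene (−1.30, adjusted p = 0.039), and Hmcn1, a basement membrane protein gene (−1.24, adjusted p = 0.0384), were each lost without any of 6, implanted cGAMP replicate 1 included (adjusted p = 0.267 and 0.263).

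Genes of immune inhibition, cell death and the STING pathway gave few calls. Over all genes 1.92% rose and 0.496% fell in the mean response, and the counts of these short lists stand beside those shares. Only 2 of 8 listed immune inhibition genes reached the level for testing, and both rose. Cd274 reached that level only through the cGAMP libraries, so this count was partly set by the filter on low values. Cd274, which encodes PD-L1, stood at 6.81 and 0, 78.5 and 40.0, 17.5 and 0, and 48.3 and 76.8 CPM (2.23 ± 0.46, adjusted p = 0.009), a call lost without spontaneous cGAMP replicate 1 or either implanted cGAMP library (0.0551 to 0.135). Lgals9, the galectin-9 gene, stood at 121 and 95.4, 422 and 325, 187 and 91.2, and 408 and 471 CPM (1.68, adjusted p = 0.000232). For both, cGAMP and PBS libraries did not overlap. Of 18 death and survival genes 1 rose: Gsdmd, the pore-forming effector of pyroptosis, stood at 15.7 and 8.34, 91.3 and 85.8, 17.8 and 22.5, and 113 and 84.2 CPM (2.01, adjusted p = 0.00111). Of 8 STING pathway genes 0 passed (median 0.19), and Tmem173, which encodes STING, stood at 91.3 and 88.3, 190 and 101, 122 and 94.9, and 171 and 200 CPM (0.65, adjusted p = 0.274). Of 12 NF-kB targets 1 rose, Irf8 (1.19 ± 0.25, adjusted p = 0.012), which was lost without any of 4 libraries, and the feedback inhibitor gene Nfkbia had a change of 0.17 (adjusted p = 0.803). Of 10 dissociation and stress genes 1 fell, the heat shock gene Hspa1b (−0.86, adjusted p = 0.0132), lost without any of 4 libraries. The only proliferation gene tested, the replication clamp gene Pcna, stood at 51.5 and 75.1, 6.50 and 5.79, 47.2 and 45.2, and 69.5 and 37.5 CPM. It did not pass in the mean response (−1.02, adjusted p = 0.173) but fell by 2.16 ± 0.49 in spontaneous tumours (adjusted p = 0.0256), a call lost without any of 6 libraries, and its change was −0.04 when cells were thinned to 2000 UMIs. Of 4 pan-endothelial markers 1 rose, Egfl7 (0.71, adjusted p = 0.0122), of 5 blood EC markers Aqp1 fell, and 0 of 5 epithelial markers passed.

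A small set of genes, led by the iron storage gene Fth1, responded to cGAMP differently in the lymphatic ECs than in the blood ECs of the same libraries. The difference between the 2 responses was tested on the log2 level of lymphatic minus blood ECs in each library, and 26 of 7061 genes passed (0.368%), 20 with a higher (0.283%) and 6 with a lower response (0.085%) in the lymphatic ECs. The blood EC class could include lymphatic ECs whose Prox1 was not captured, most of all in implanted cGAMP replicate 1, and their part was not tested. Fth1, the ferritin heavy chain that stores iron (chromosome 19, 9980598 to 9985098, plus strand), stood at 7488 and 6158 CPM in spontaneous PBS, 14954 and 11594 in spontaneous cGAMP, 4497 and 4769 in implanted PBS, and 15796 and 11094 in implanted cGAMP. In blood ECs it stayed between 1730 and 2929 CPM. Its response in the lymphatic ECs exceeded that in blood ECs by 1.14 ± 0.09 on the log2 scale (limma, adjusted p = 6.84e-06), whichever library was left out. The excess was at least 1.04 under all alternatives tried, but its adjusted p was 0.998 in the lymphatic ECs without UMIs of other cell types. Ftl1, the light chain gene named after its value was seen, had a response of 0.00 in the lymphatic ECs.

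Mt1, a metallothionein gene whose product binds zinc and copper, stood at 34.7 and 21.9, 254 and 205, 12.7 and 4.23, and 239 and 64.8 CPM in the lymphatic ECs. The excess over the response of blood ECs was 2.83 ± 0.38 (adjusted p = 0.00317), lost without spontaneous cGAMP replicate 1 (0.0696). Fabp4, a fatty acid carrier gene, stood at 28.9 and 6.00, 193 and 247, 97.2 and 19.6, and 464 and 299 CPM in the lymphatic ECs. It was far more abundant in blood ECs, at 2589 to 7375 CPM, and the part of free RNA from blood ECs in the low lymphatic level was not tested. Its excess was 3.38 ± 0.50 (adjusted p = 0.0271), lost without any of 3 libraries. The related gene Fabp5 reached 323 and 319 CPM in implanted cGAMP and 13.2 to 76.4 CPM elsewhere (2.19, adjusted p = 0.0216). Apod, described above, stood at 0.0629 to 26.1 CPM in blood ECs and had an excess of 2.65 ± 0.46 (adjusted p = 0.0271). Ackr3 had an excess of 1.43 (adjusted p = 0.0271), lost without any of 5 libraries. All of these except Fth1 lost their call without at least 1 library. Of 5 proliferation genes in this comparison 3 passed with a positive difference (60%, against 0.283% of all genes). These 3 entered through their level in blood ECs, so a fall in blood ECs alone could give a positive difference. The count therefore shows no rise in the lymphatic ECs. Top2a, the topoisomerase of dividing cells, stood at 13.2 and 5.30, 0 and 0, 0 and 7.86, and 49.5 and 16.8 CPM in the lymphatic ECs, and fell by 1.95 on the log2 scale in blood ECs. Its difference was 2.28 ± 0.40 (adjusted p = 0.0271), beside 2.07 for Mki67 (adjusted p = 0.0439) and 2.06 for Birc5 (adjusted p = 0.0285). Each lost its call without any of 4 or 5 libraries, implanted cGAMP replicate 1 among them, and when cells were thinned to 2000 UMIs. Their own levels in the lymphatic ECs were too low for a test of the mean response.

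Fewer genes had a lower response in the lymphatic ECs. Pgf, the placental growth factor gene, stood at 85.1 and 96.2, 0 and 35.8, 75.1 and 124, and 41.2 and 55.1 CPM in the lymphatic ECs and at 14.6 and 9.59, 73.96 and 36.2, 18.7 and 12.03, and 52.7 and 93.0 CPM in blood ECs. The 2 cell classes thus moved in opposite directions, with a difference of −3.15 ± 0.56 (adjusted p = 0.0439), lost without any of 6 libraries. The lymphatic ECs' own fall did not pass (−1.56, adjusted p = 0.0569), whereas the rise in blood ECs did (1.59, adjusted p = 0.0102). Cd63, a tetraspanin gene among the lymphatic identity markers, stood at 633 to 968 CPM in the lymphatic ECs, while it rose by 1.25 on the log2 scale in blood ECs from a level of 118 to 490 CPM. Its difference was −0.85 (adjusted p = 0.0471), lost when any library was left out.

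**Figure D5:**
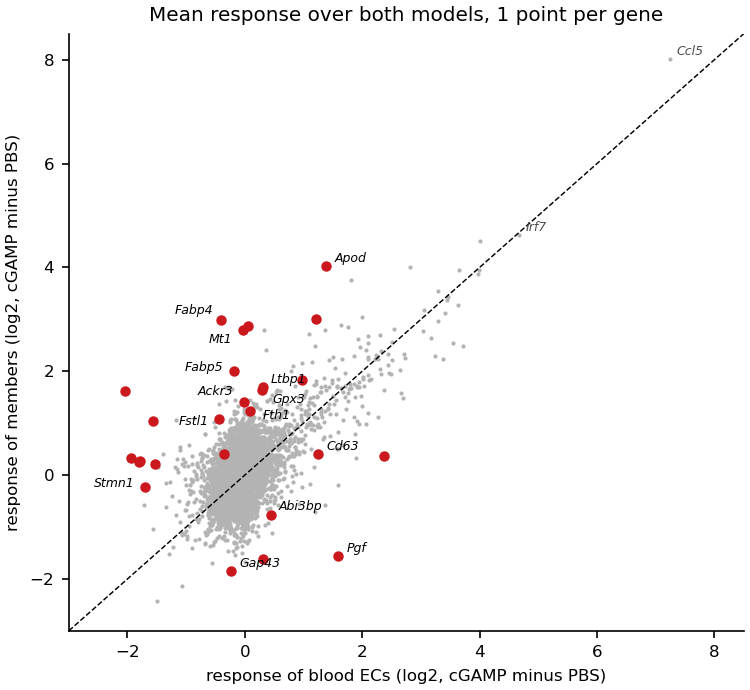
Mean response to cGAMP (log2 change, cGAMP minus PBS) in blood ECs (x axis) and in the lymphatic ECs (y axis, "members"), 1 point per gene, with the dashed line where both are equal. Red points passed the test of the difference. Ccl5 and Irf7 lie high in both classes, Fth1 and Mt1 lie above the line, and Pgf and Cd63 lie below it.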

How the data were processed

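The authors aligned reads with Cell Ranger 3.0.0 to mm10 and, with Seurat 3.1.1, removed cells under 500 genes or over 10% mitochondrial UMIs. The deposited values are the natural log of 1 plus a gene's UMIs scaled to 10000 per cell. Whole UMIs were recovered for 100% of values (tolerance 0.01). No column went unused, and no doublet caller was run. Members and gene lists were chosen with earlier results of these data known. In each library the members' CPM was averaged, and log2(mean CPM + 10) of genes whose mean reached 20 CPM was tested with limma 3.58.1 (R 4.3.3, robust empirical Bayes, 4 groups, Benjamini-Hochberg adjustment), checked first on simulated counts. The 6 genes of the rule were left out of these tests, which departs from the plan. Shares were compared by exact permutation (Python 3.11.15, SciPy 1.17.1). Named genes were the rule genes, list genes and, among called genes whose mean reached 50 CPM, the 10 largest changes in each direction, or 5 between models. Others are named as chosen after their values were seen. Some listed genes are not reported here. Lists covered lymphatic, traffic, junction, interferon, MHC, death, STING, stress and contaminating cell genes. Replicate numbers did not pair libraries (correlations of deviations 0.00802 and 0.0506). The adjusted p of genes in families with close copies (Ccl21a, Ifit3, Gbp and H2 genes) rests on how reads were divided among them.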

Additional observations from a re-analysis of the deposited data

Results flagged for a closer look

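Of 7061 genes tested 26 (0.368%) differed between the lymphatic ECs and the blood ECs of the same libraries in their response to cGAMP, and 17 of them are named here. For 14 genes whose mean in the lymphatic ECs reached 50 CPM the response to cGAMP (log2 change, mean over both models) differed by limma's test of the difference itself, with adjusted p below 0.05. In 10 the response was higher in the lymphatic ECs, by 3.38 for Fabp4, 2.83 for Mt1, 2.65 for Apod, 2.19 for Fabp5, 1.53 for Fstl1, 1.47 for Stmn1, 1.43 for Ackr3, 1.40 for Ltbp1, 1.35 for Gpx3 and 1.14 for Fth1. In 4 it was lower, with differences of −3.15 for Pgf, −1.61 for Gap43, −1.20 for Abi3bp and −0.85 for Cd63. Among the proliferation genes, which were below 50 CPM and entered only through blood ECs, the differences were 2.28 for Top2a, 2.07 for Mki67 and 2.06 for Birc5. Stmn1, which encodes a microtubule regulator, had a response of −0.24 in the lymphatic ECs (adjusted p = 0.804) and fell by 1.71 in blood ECs. Gpx3, a secreted antioxidant enzyme gene, stood at 142 and 98.5 CPM in spontaneous PBS, 598 and 491 in spontaneous cGAMP, 64.2 and 84.7 in implanted PBS, and 165 and 192 in implanted cGAMP, against 6.94 to 38.1 CPM in blood ECs. Ltbp1, a latent TGF-beta binding protein gene, stood at 67.3 and 79.4, 234 and 170, 34.9 and 52.0, and 186 and 240 CPM in the lymphatic ECs, whereas Ltbp4 fell. Fstl1, a secreted glycoprotein gene, stood at 53.9 and 168, 345 and 323, 211 and 187, and 254 and 309 CPM. Of the 14, 1 (Fth1) kept its call whichever library was left out, and 3 kept it without implanted cGAMP replicate 1.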

How the results depend on the processing

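The mean response gave 156 genes, with 65 without the filter on low values, 40 when cells were thinned to 2000 UMIs, and 77 to 188 when 1 library was left out. The spontaneous response gave 107, with 28 without the filter, 187 on summed UMIs, 32 thinned, and 31 to 128 with 1 library left out. The implanted response gave 50, with 30 at a pseudocount of 1 CPM, 6 without the filter, 8 thinned, and 15 to 66 with 1 library left out. The difference of responses gave 0, with 20 in members without UMIs of other cell types and 0 to 9 with 1 library left out. The models in PBS differed in 26, with 16 at a pseudocount of 50 CPM, 1 without the filter, 42 on summed UMIs, 11 thinned, 44 in members without UMIs of other cell types, and 20 to 52 with 1 library left out. The models with cGAMP differed in 1, with 0 at a pseudocount of 1 CPM, without the filter or thinned, 9 with weights by number of members or in members without UMIs of other cell types, and 0 to 1 with 1 library left out. Members and blood ECs differed in 26, with 2 at a pseudocount of 1 CPM, 8 at a filter of 50 CPM, 10 with weights, 4 thinned, 6 in members without UMIs of other cell types, and 2 to 47 with 1 library left out.

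With a replicate block the counts were 182, 133, 59, 0, 43, 1 and 25 in the same order, and the numbers did not pair the libraries. Lgals1 reversed to 0.21 in members without UMIs of other cell types. Of 59 named or listed genes called in the mean response, 13 were called under every alternative, 33 whichever library was left out, and 51 in at least as many alternatives as not. The difference in share stayed positive throughout, from 1.49 to 2.31 points between treatments and 0.39 to 1.21 between models with 1 library left out. With 7 to 15 cells in 6 libraries, genes of low level could not be followed. The causes of these changes were not tested.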

Other observations

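The following genes lie outside the lists and were named after their values were seen, so they stand for no group. The complement gene C2 stood at 42.6 and 15.7 CPM in spontaneous PBS, 229 and 257 in spontaneous cGAMP, 61.8 and 15.7 in implanted PBS, and 231 and 471 in implanted cGAMP (log2 change 2.88, limma, adjusted p = 8.28e-05). Cfb, complement factor B, rose by 2.33 (adjusted p = 0.00772) and Il18bp, a decoy for interleukin-18, by 2.81 (adjusted p = 0.000452). The glycolytic genes Aldoa and Gapdh rose by 1.09 (adjusted p = 0.00112) and 1.06 (adjusted p = 0.00211), and Hif1a, the hypoxia-responsive transcription factor gene, by 0.99 (adjusted p = 0.0293). Of 13 genes of the mitochondrial genome tested 7 fell (53.8%), and of 81 ribosomal protein genes 5 fell (6.17%), against 0.496% of all genes. The median log2 changes of the families were −0.57 and −0.21. The respiratory gene mt-Cytb stood at 4146 and 4885, 2267 and 1718, 3668 and 4122, and 2112 and 1882 CPM (−1.07, adjusted p = 1.6e-05), and at 1983 to 4628 CPM in blood ECs. Nppc, which encodes C-type natriuretic peptide, had no UMI in any PBS library and stood at 165 and 7.93, and 62.5 and 118 CPM with cGAMP, at least 18.4-fold higher with a floor of 3 counts over the group (adjusted p = 0.0124).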
